A study of Caenorhabditis elegans with 8 samples.

Results

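Molecular chaperones are proteins that bind unfolded or partly folded proteins and keep them from clumping, and each compartment of the cell has its own set. In the cytosol Hsp70 takes up new or damaged chains, Hsp110 resets Hsp70 by exchanging its nucleotide, and Hsp90 finishes the folding of signalling proteins such as kinases and receptors. The endoplasmic reticulum (ER) uses Hsp70 proteins of the BiP type, and mitochondria use their own Hsp70 and the ring-shaped chaperonin Hsp60. In C. elegans the ER and mitochondrial genes are standard readouts of the unfolded protein responses of those compartments, and DAF-16, the FOXO transcription factor restrained by insulin-like signalling, is known to act with the heat shock factor HSF-1 on several stress chaperones.

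The 8 genes described here were taken by name from the deposited table of 41560 rows, not by their values, and all 8 were present. The cytosolic genes are hsp-1 (constitutive Hsp70), hsp-70 (heat-inducible Hsp70), hsp-110 and daf-21 (Hsp90, named hsp-90 in the current reference). The ER genes are hsp-3 and hsp-4, both BiP homologues, and the mitochondrial genes are hsp-6 (mitochondrial Hsp70, or mortalin) and hsp-60.

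RNA from whole young adult worms was sequenced in 8 libraries. The worms were wild type (Bristol strain N2) or carried the daf-16 deletion allele mgDf50, and they fed on Escherichia coli BW25113 or on its hns mutant, which lacks the DNA-binding repressor H-NS. All grew on NGM agar plates at 20 °C, and each of the 4 groups had 2 libraries. The labels do not say whether a group's 2 libraries stand for separate cultures, nor how many worms went into each, so the spread behind the p-values may be technical.

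The values were FPKM, in which the authors divided each gene's fragments by its transcript length and by the depth of the library. They summed to between 2128460 and 2508481 per library, and in each group replicate 2 had the higher sum. The number of fragments behind each value is not known, because the low values lay too loosely on whole fragments for counts to be recovered. The daf-16 transcript itself was at 69.9 to 77.4 FPKM in the 4 wild-type libraries and at 15.8 to 19.2 FPKM in the 4 mutant libraries, so the genotype labels matched it. The adult markers vit-2, vit-6 and col-19 together stood at 5641 to 8143 FPKM per library, and the sperm markers spe-9, spe-11, spe-38 and msp-142 together at 3.29 to 10.5 FPKM. In whole worms, fewer cells of a type and less RNA per cell cannot be told apart.

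The chaperones spanned a wide range of levels, which FPKM allows to be set side by side per transcript length. The Hsp90 gene daf-21 was the highest, with a mean of 2830 FPKM over the 8 libraries. The constitutive cytosolic Hsp70 gene hsp-1 followed at 1761 FPKM. The mitochondrial chaperonin gene hsp-60 stood at 522 FPKM, the ER gene hsp-3 at 423 FPKM and the mitochondrial Hsp70 gene hsp-6 at 330 FPKM. This order of 5 genes was the same within each of the 8 libraries, although the ranges of hsp-60 and hsp-3, and of hsp-3 and hsp-6, overlapped between libraries. The last abundant genes, hsp-110 at 242 FPKM and hsp-4 at 240 FPKM, did not differ beyond their spread: hsp-110 was the higher in 3 of 8 libraries.

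The heat-inducible gene hsp-70 stood far below the others, between 0.184 and 0.771 FPKM, and reached 1 FPKM in no library. In wild type its values were 0.354 and 0.307 FPKM with BW25113 and 0.771 and 0.545 FPKM with hns bacteria. In the mutant they were 0.474 and 0.184 FPKM with BW25113 and 0.394 and 0.688 FPKM with hns bacteria. In wild type the libraries on hns food were the higher without overlap, and in the mutant the groups overlapped. Of the genes tested, a set without hsp-70, 25.3% were higher on hns food without overlap in wild type. The gene missed the filter of at least 1 FPKM in at least 2 libraries. When no filter was used, its limma adjusted p was 0.429 for food in wild type and 0.849 for food in the mutant, and the test of the difference between these food effects gave a limma adjusted p of 1.00 (unadjusted p = 0.662). In the reference annotation hsp-70 overlaps uggt-2 on the opposite strand, and whether the authors' counting used strand is not given in the sources used here, so fragments of the overlap cannot be assigned with certainty. The same holds for daf-21, which overlaps the coding gene C47E8.4 on the opposite strand. Among the other Hsp70-family genes listed, the stress-inducible F44E5.4 was listed at 0 in every library, and F44E5.5 did not exceed 0.0208 FPKM. The lowest of the rest was F11F1.1, at 6.35 to 8.63 FPKM. The small heat shock gene hsp-16.2, a common reporter of heat stress, ranged from 0.824 to 4.57 FPKM.

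**Figure D1:**
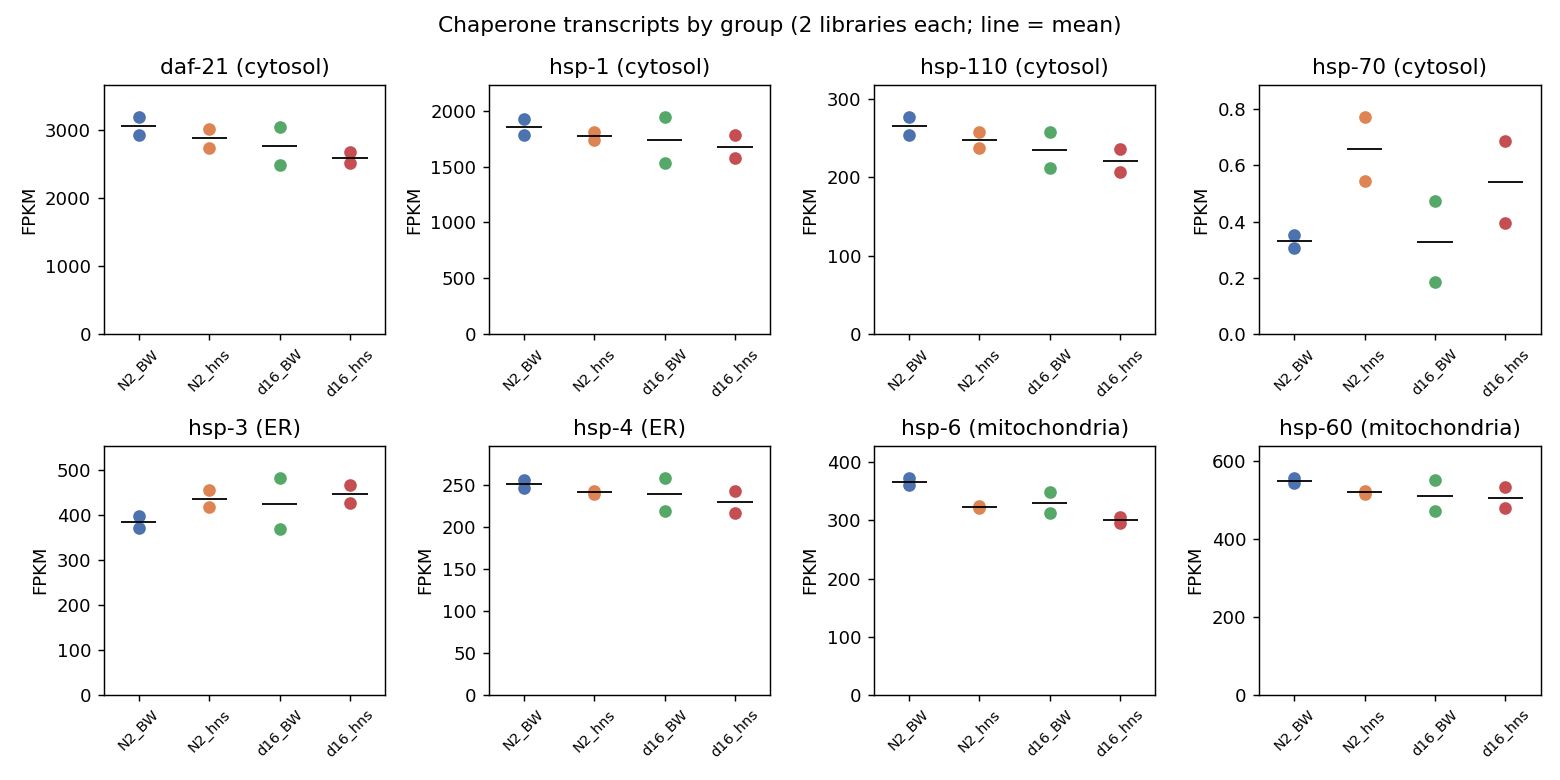
FPKM of the 8 chaperone genes (linear axes from 0, own scale per gene) in wild type (N2) and daf-16 mutants (d16) on BW25113 (BW) or hns food; points are libraries and lines are means of 2. The 7 abundant genes keep similar heights in all groups, while hsp-70 does not exceed 0.771 FPKM.

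For the 7 abundant genes the ratio of the highest to the lowest of the 8 libraries lay between 1.18 for hsp-60 and 1.34 for hsp-110, and the coefficient of variation between 6.09% for hsp-60 and 10.1% for hsp-3. Over the 2653 tested genes with a mean of at least 100 FPKM the median coefficient of variation was 7.18%, so 5 of the 7 chaperones were more variable than the median gene of that class and 2 (hsp-4 and hsp-60) less.

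Part of this variation lay between the 2 libraries of a group. In 25 of the 28 pairs of replicates (7 genes in 4 groups) replicate 2 was the higher, with a median log2 difference of 0.12 against 0.00 over all genes tested. For 4 of the 7 genes replicate 2 was higher in all 4 groups, as it was for 17.4% of the 14564 genes tested. For each of the 7 genes the widest gap was in the daf-16 mutant on BW25113 food, where hsp-1 stood at 1536 and 1940 FPKM and daf-21 at 2498 and 3049 FPKM. The FPKM sums differed in the same direction, and their part in the chaperone values was not tested.

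The first question was whether hns food changed the chaperones in wild type. None of the 7 tested genes passed (limma, adjusted p of 0.287 to 0.808), where 0.872% of all genes tested did, and 1 of the 7 (hsp-6) had an unadjusted p under 0.05, as did 15.7% of all genes. The median log2 fold change of the 7 was -0.08, against 0.00 over all genes, with 6 below 0 and hsp-3 above, or 5 below 0 after quantile normalization, where hsp-4 turned.

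The mitochondrial Hsp70 made from hsp-6 draws proteins across the inner membrane and folds them in the matrix. The transcript was at 360 and 373 FPKM on BW25113 food, and on hns food at 325 and 320 FPKM. The 4 libraries did not overlap, those on hns food being the lower, and the difference was -11.9% (unadjusted 95% interval -21.5% to -1.21%; log2 fold change -0.18 ± 0.07 SE, limma adjusted p = 0.287). Its partner in the matrix, hsp-60, encloses unfolded proteins in its ring. It was at 544 and 557 FPKM on BW25113 food, and on hns food at 525 and 515 FPKM, again without overlap but with a log2 fold change of -0.08 ± 0.09 (limma adjusted p = 0.643).

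In the ER, BiP pulls newly made proteins through the membrane and holds the stress sensors inactive. The BiP gene hsp-3 was at 370 and 398 FPKM on BW25113 food, and on hns food at 455 and 418 FPKM. The libraries on hns food were the higher ones and the groups did not overlap (13.6%, unadjusted 95% interval -8.99% to 41.9%; limma adjusted p = 0.489). The second BiP gene, hsp-4, which the ER stress regulator XBP-1 induces, was at 247 and 257 FPKM on BW25113 food. On hns food it was at 240 and 243 FPKM, slightly lower and without overlap (log2 fold change -0.06 ± 0.09, limma adjusted p = 0.736). In all, 3 of the 7 genes were lower without overlap, as were 28.9% of all genes, and 1 was higher, as were 25.3%.

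The cytosolic genes overlapped between the foods in wild type. The Hsp90 gene daf-21 was at 2938 and 3192 FPKM on BW25113 food, and on hns food at 2745 and 3026 FPKM (log2 fold change -0.09 ± 0.13, limma adjusted p = 0.71). The Hsp70 gene hsp-1 was at 1783 and 1925 FPKM against 1739 and 1812 FPKM, and hsp-110 at 255 and 276 FPKM against 238 and 258 FPKM (limma adjusted p = 0.808 and 0.65). Over the 7 genes the intervals ran from a decrease of at most -23.7% (daf-21) to an increase of at most 41.9% (hsp-3), so changes larger than these lay outside the unadjusted 95% intervals.

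In daf-16 mutants, which ask whether the response to hns food needs DAF-16, none of the 7 genes passed either (limma, adjusted p of 0.817 to 0.98), where 0.405% of all genes did, and 0 had an unadjusted p under 0.05, against 6.5% of all genes. For hsp-6 the libraries were at 313 and 349 FPKM on BW25113 food, and on hns food at 295 and 306 FPKM. Those on hns food were again the lower without overlap, as for 14.7% of all genes, with a difference of -8.94% (unadjusted 95% interval -18.8% to 2.15%; limma adjusted p = 0.817). It was the only one of the 7 whose groups did not overlap. The BiP gene hsp-3 was at 368 and 482 FPKM on BW25113 food, and on hns food at 426 and 466 FPKM, so the libraries on hns food lay between those on BW25113 food. The log2 fold changes of hsp-1, hsp-110, daf-21, hsp-4 and hsp-60 ran from -0.09 to -0.01. All 5 turned above 0 without replicate 2 on BW25113 food, and those of hsp-1, hsp-110, hsp-4 and hsp-60 also without replicate 1 on hns food. That of hsp-3 turned below 0 without replicate 1 on BW25113 food. Of the 7 genes 6 lay below 0 as deposited, against 1 (hsp-6) after rescaling the libraries to a common FPKM sum and 3 after quantile normalization. That rescaling moved the median of all genes to 0.08, above the 0.04 of the 7 chaperones.

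The difference between the food effects of the genotypes was tested directly. None of the 7 genes passed (limma adjusted p = 1.00 for each), where 0.0961% of all genes did, and 0 of the 7 had an unadjusted p under 0.05. The estimates lay between -0.07 (hsp-60) and 0.10 (hsp-3) on the log2 scale, and the unadjusted 95% intervals between -0.46 and 0.56.

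Averaged over the genotypes, which gives the food comparison 4 libraries on each side, 0 of the 7 genes passed, where 1.76% of all genes did. The smallest limma adjusted p (0.173) was that of hsp-6, with a log2 fold change of -0.16 ± 0.05 (SE; -10.4%, unadjusted 95% interval -17.4% to -2.87%). An unadjusted p under 0.05 was reached by 1 of the 7 genes and by 19% of all genes. None of the 7 was free of overlap between the 4 libraries on each food, where 4.19% of all genes were lower and 6.33% higher without overlap. Beside this, the germline markers glh-1, pgl-1, gld-1, mex-3 and puf-5 together stood at 2083 to 2163 FPKM in the wild-type libraries on BW25113 food, and on hns food at 1770 to 2046 FPKM. In the mutant they stood at 1779 to 2142 FPKM on BW25113 food, and on hns food at 1785 to 1938 FPKM. Of the hypodermis markers dpy-7, rol-6 and wrt-10, dpy-7 and wrt-10 rose in the average over genotypes (limma log2 fold change 1.19 ± 0.19 and 1.06 ± 0.18, adjusted p = 0.0403 and 0.0487), and wrt-10 rose in wild type (1.70 ± 0.25, adjusted p = 0.0482). Of these, dpy-7 lost its call in 10 of 15 alternatives, and wrt-10 in 12 of 15 averaged over genotypes and in 13 of 16 in wild type (highest limma adjusted p 0.136, 0.185 and 0.247). Each wrt-10 call was lost without any 1 of the 8 libraries, and that of dpy-7 without any 1 except replicate 1 of the mutant on BW25113 food. The third hypodermis marker, rol-6, ranged only from 0.344 to 2.95 FPKM. Its log2 fold change for food was 0.75 in wild type, -0.60 in the mutant and 0.08 averaged over genotypes, and it did not pass. In the mutant dpy-7 and wrt-10 lay above 0, at 0.64 and 0.41, but 0 of the 3 hypodermis markers passed there (lowest limma adjusted p = 0.765). The part of the germline and hypodermis markers in the hsp-6 values was not tested.

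The loss of daf-16 was compared with wild type on each food. On BW25113 food 0 of the 7 genes passed (limma, adjusted p of 0.597 to 0.861), where 0.261% of all genes did. On hns food 0 passed (limma, adjusted p of 0.784 to 0.989), where 0.233% of all genes did. On neither food did a chaperone have an unadjusted p under 0.05, against 9.12% and 7.84% of all genes. The median log2 fold change of the 7 was -0.11 on BW25113 food and -0.08 on hns food, with 6 of 7 genes below 0 on each food and hsp-3 above. Those 6 stayed below 0 after quantile normalization and after rescaling to a common FPKM sum, which moved the median of all genes to -0.10 on BW25113 food and that of the 7 chaperones to -0.24. On hns food hsp-3 also turned below 0 after that rescaling. Without replicate 1 of the mutant on BW25113 food hsp-1, hsp-4 and hsp-60 turned above 0 on that food, and without replicate 1 of the mutant on hns food the same 3 genes did so on hns food. The value of hsp-3 turned below 0 on BW25113 food without replicate 2 of the mutant, and on hns food without replicate 2 of either genotype.

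On BW25113 food, hsp-6 was at 313 and 349 FPKM in the mutant against 360 and 373 FPKM in wild type, lower without overlap, as were 16.3% of all genes (log2 fold change -0.15 ± 0.07 SE, limma adjusted p = 0.597). The other 6 genes overlapped, and 0 were higher without overlap, against 23.5% of all genes. On hns food 0 were higher in this way, against 17.5% of all genes, and 3 genes were lower in the mutant without overlap, as were 17.3% of all genes. These were hsp-6, at 295 and 306 FPKM against 325 and 320 FPKM, and the cytosolic genes hsp-110 and daf-21. The nucleotide exchange factor gene hsp-110 was at 206 and 237 FPKM in the mutant against 238 and 258 FPKM in wild type (limma log2 fold change -0.16 ± 0.12, adjusted p = 0.796). The Hsp90 gene daf-21 was at 2516 and 2677 FPKM against 2745 and 3026 FPKM (-0.15 ± 0.13, adjusted p = 0.824).

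Averaged over the foods, 0 of the 7 genes passed for genotype, where 0.831% of all genes did, and 1 (hsp-6) had an unadjusted p under 0.05, against 12.9% of all genes. Again 0 of the 7 were free of overlap between the genotypes, where 2.15% of all genes were lower and 4.22% higher. The estimate was -0.17 ± 0.08 for hsp-110, -0.15 ± 0.09 for daf-21 and -0.13 ± 0.05 for hsp-6 (log2, SE; limma adjusted p = 0.46, 0.543 and 0.352). With unadjusted 95% intervals of -22.7% to 2.00% for hsp-110 and -15.5% to -0.546% for hsp-6, changes beyond these bounds lay outside the intervals. Together the 8 genes held 0.302% to 0.304% of the FPKM sum in wild type on BW25113 food and 0.284% to 0.294% on hns food. In the mutant they held 0.237% to 0.275% on BW25113 food and 0.255% to 0.270% on hns food. Their summed FPKM overlapped between the genotypes, at 6267 to 6977 FPKM in wild type and 5619 to 6888 FPKM in the mutant. The FPKM sums behind these shares were 2128460 to 2322861 in wild type and 2243754 to 2508481 in the mutant, and their part was not tested.

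**Figure D2:**
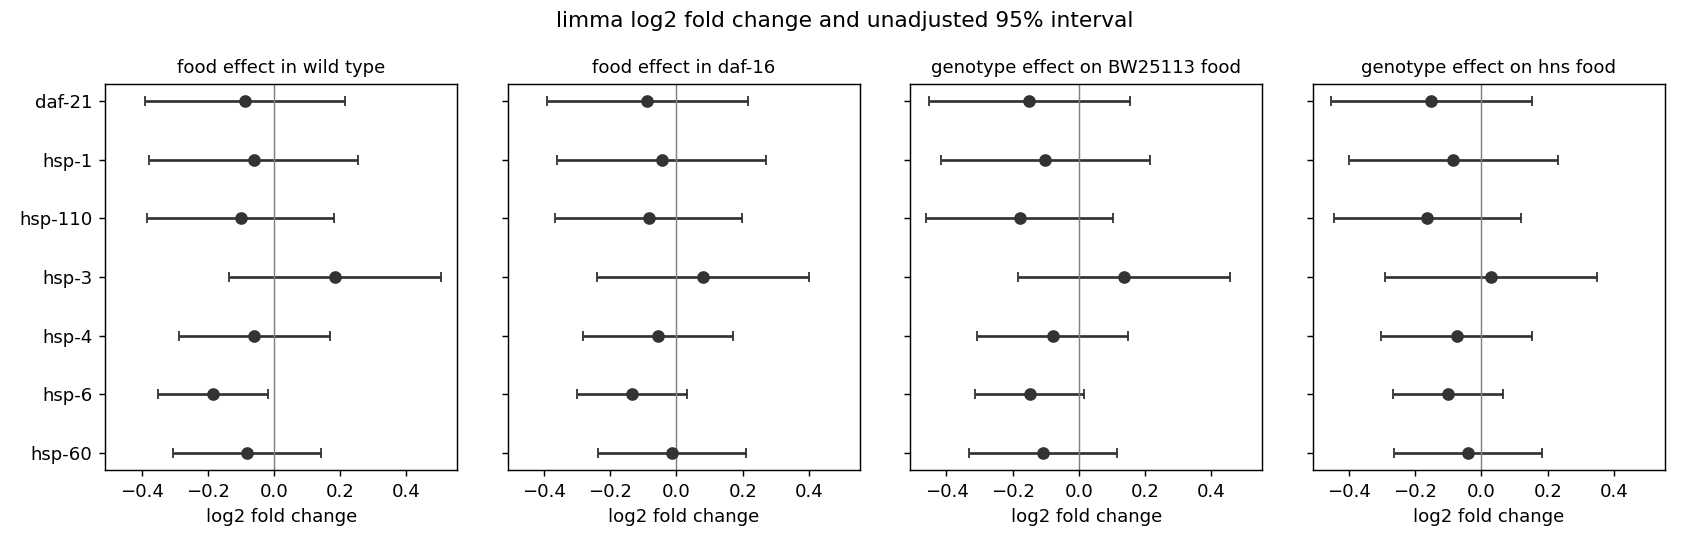
The limma log2 fold change (point) and unadjusted 95% interval (bar) of the 7 tested chaperones for food within each genotype (hns minus BW25113) and genotype on each food (daf-16 minus wild type). All 28 intervals but that of hsp-6 for food in wild type include 0, and hsp-3 is the gene above 0 in each panel (-0.0045 for genotype on hns food after rescaling to a common FPKM sum).

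Ratios of a pair of chaperones within a library are not changed by a single factor per library, though quantile normalization changes them. They were compared as a check chosen after the values were seen. The 4 ratios set genes of the same compartment side by side. For hsp-6 over hsp-60 the ratio was 0.662 and 0.669 in wild type on BW25113 food and 0.618 and 0.622 on hns food. In the mutant it was 0.662 and 0.632 on BW25113 food and 0.616 and 0.574 on hns food. Within each genotype the libraries on hns food were the lower without overlap. In the mutant the gap, from 0.632 to 0.616, was smaller than the spread between replicates on either food. The genotypes were not separated beyond the spread between replicates, since they met at 0.662 on BW25113 food, and on hns food the nearest libraries were at 0.616 in the mutant and 0.618 in wild type.

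For the ER pair, hsp-3 over hsp-4, the ratio was 1.50 and 1.55 in wild type on BW25113 food and 1.90 and 1.72 on hns food. In the mutant it was 1.68 and 1.87 on BW25113 food and 1.97 and 1.92 on hns food. Here the libraries on hns food were the higher in each genotype and those of the mutant the higher on each food. Each of these gaps was smaller than the widest spread between replicates in the groups compared. The balance between the BiP genes stood furthest toward hsp-4 in wild type on BW25113 food.

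For the cytosolic pair hsp-110 over hsp-1 the ratio was 0.143 and 0.144 in wild type on BW25113 food, 0.137 and 0.142 in wild type on hns food, 0.138 and 0.133 in the mutant on BW25113 food and 0.131 and 0.133 in the mutant on hns food. The wild-type libraries on BW25113 food were the highest, above those of wild type on hns food by less than the spread between the hns replicates. In the mutant the foods met at 0.133, so they were not separated beyond the spread between replicates. The ratio of daf-21 to hsp-1 lay between 1.50 and 1.67 and overlapped between the foods in both genotypes.

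An exact two-sided permutation test of a ratio, for food within genotype or genotype within food, has 36 arrangements and a smallest possible p of 0.0556. It could not fall under 0.05 for any ratio, so no test bears out these differences. On hns food hsp-6 over hsp-60 was 0.925-fold, hsp-3 over hsp-4 1.14-fold and hsp-110 over hsp-1 0.973-fold that on BW25113 food, and in the mutant they were 0.966-fold, 1.12-fold and 0.947-fold those in wild type.

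Counted at full precision, the same lack of overlap between the foods in both genotypes was shown by 6.73% of 2646 other abundant genes set over hsp-60 in place of hsp-6, by 3.1% set over hsp-4 and by 3.21% set over hsp-1. For genotype these shares were 2.8%, 19.3% and 1.78%, counted likewise on both foods.

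**Figure D3:**
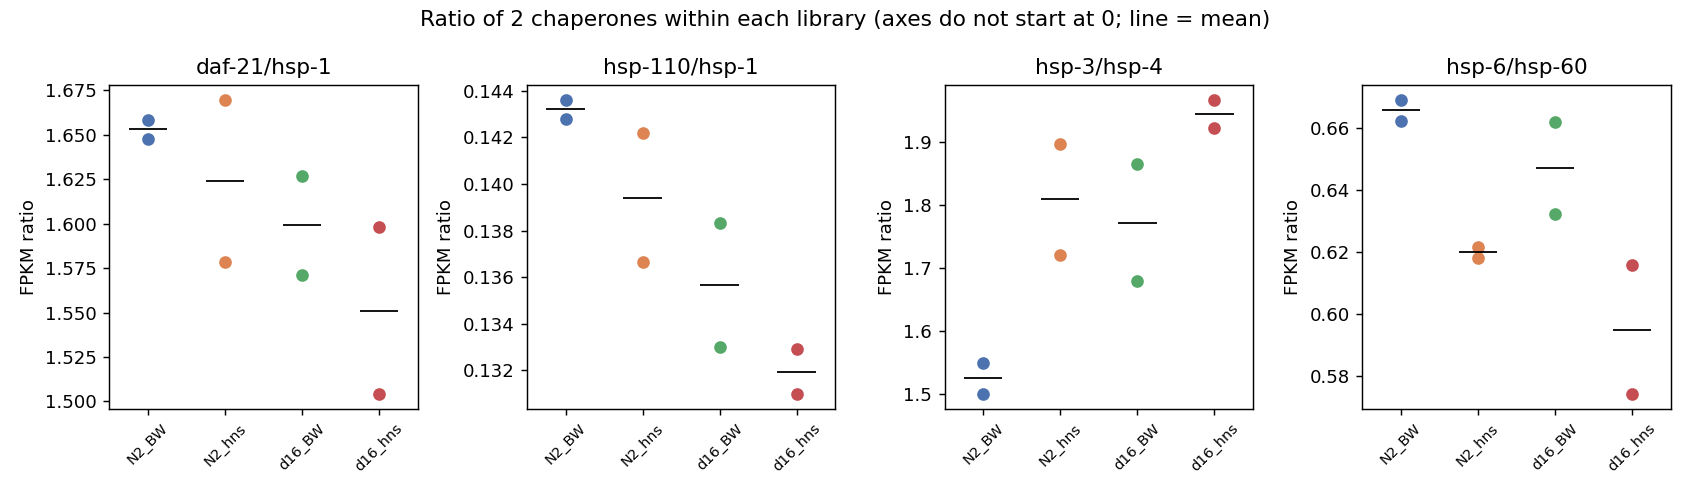
FPKM ratio of a pair of chaperones within each library, by group (axes do not start at 0; points are libraries and lines are means of 2). The ratio hsp-6/hsp-60 is lower and hsp-3/hsp-4 higher on hns food within each genotype, while daf-21/hsp-1 overlaps between the foods. Only for hsp-6/hsp-60 in wild type is the gap between the foods wider than the spread between replicates in both groups.

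Across the 8 libraries 6 of the 7 genes moved together and hsp-3 stood aside. On the log2 scale Pearson's r between hsp-1, hsp-110, daf-21, hsp-4, hsp-6 and hsp-60 lay between 0.73 and 0.98. That of hsp-3 with the other 6 lay between -0.23 (hsp-6) and 0.39 (hsp-1). Once each group's mean was taken away, r of hsp-3 with the others was 0.76 to 0.98. These deviations hold 1 free value per group and were widest in the mutant on BW25113 food. In wild type on hns food hsp-3, hsp-6 and hsp-60 were lower in replicate 2, and hsp-1, hsp-110, daf-21 and hsp-4 higher. The correlations are descriptions over 8 libraries that share their scaling, with no test.

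The 2 tested genes most like each chaperone over the 8 libraries were found by Pearson's r on the log2 scale, among 8568 genes with a mean of at least 10 FPKM. For hsp-1 they were dnj-12, a J-domain cochaperone of Hsp70 (r = 0.98), and hsp-4 (r = 0.98). For daf-21 they were arf-3 and the chaperonin subunit gene cct-6 (r = 0.99 each), and for hsp-110 the proteasome subunit gene rpn-9 and the translation release factor gene erfa-1 (r = 0.99 each). The mitochondrial gene hsp-6 was most like klp-18, a kinesin of the meiotic spindle (r = 0.99), and F56D1.1 (r = 0.98), and hsp-60 most like ZK418.9 and the kinase gene mbk-2 (r = 0.99 each). For hsp-4 they were F08F3.6 (r = 1.00) and F38A1.8 (r = 0.99). The closest to hsp-3 were skpo-3 and K09E9.5 (r = 0.94 each). Each r was picked as among the largest of 8568 over 8 libraries that share their scaling. These values are therefore high by selection, and a shared regulation was not tested.

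The partners of the chaperones were examined as lists. Of the 13 cytosolic Hsp70 and Hsp90 cochaperones tested, which load, time or close the chaperone cycle, 0 passed in any of the 7 comparisons. All 13 lay below 0 for genotype on BW25113 food (median log2 fold change -0.09) and for food in wild type (-0.07), the latter 8 of 13 after quantile normalization. In replicate 2 of the mutant on BW25113 food, however, sti-1, hip-1 and fkb-6 stood above both wild-type libraries on that food. The others lay between or below them. The p23 homologue daf-41, listed as ZC395.10, ranged from 1793 to 2347 FPKM, below the 2498 to 3192 FPKM of daf-21. The adaptor gene sti-1, which hands proteins from Hsp70 to Hsp90, ranged from 208 to 254 FPKM, and cdc-37, which brings kinases to Hsp90, from 99.9 to 118.5 FPKM (these partners were chosen for their roles after the values were seen). The 14 genes of the cytosolic chaperonin TRiC and of prefoldin, which fold actin and tubulin, gave 0 passing in each comparison. Their median was -0.07 for food averaged over genotypes and -0.11 for genotype averaged over foods, beside -0.06 and -0.09 for the 7 chaperones. For food the median of the 7 chaperones turned to 0.0052 after quantile normalization.

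Of 19 ER folding and unfolded protein response genes 0 passed in any comparison, with medians of -0.02 for food and 0.01 for genotype in the averaged comparisons, of which the first turned to 0.01 after quantile normalization and 0.03 after rescaling, and the second to -0.01 and -0.08. For food in wild type the 19 log2 fold changes ran from -0.18 to 0.33, with 9 above 0 and 10 below. In the mutant they ran from -0.13 to 0.11. The highest in wild type, dnj-27 (limma adjusted p = 0.162), was at 14.9 and 15.1 FPKM on BW25113 food. On hns food it was at 19.5 and 18.7 FPKM. The ER Hsp90 gene enpl-1 ranged from 233 to 297 FPKM and the stress transcription factor gene xbp-1 from 196 to 217 FPKM. Of 15 mitochondrial folding, import and stress genes 0 passed in any comparison, and 13 of 15 lay below 0 for food averaged over genotypes (median -0.08), or 9 after rescaling to a common sum and 11 after quantile normalization. The Hsp10 lid gene Y22D7AL.10, whose product caps the Hsp60 ring, ranged from 1216 to 1449 FPKM, and atfs-1, the regulator of the mitochondrial unfolded protein response, from 79.6 to 95.9 FPKM. Over all genes tested the medians were -0.01 for food and 0.00 for genotype. Of 4 tested genes among 6 other Hsp70-family genes 0 passed in any comparison.

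Among 9 tested genes for HSF-1, its regulators and small heat shock proteins, 1 passed, in 1 comparison. The small heat shock gene sip-1 fell in the mutant averaged over foods (limma log2 fold change -0.48 ± 0.06 SE, adjusted p = 0.0213). Wild-type libraries were at 1653 and 1719 FPKM with BW25113 and at 1430 and 1572 FPKM with hns bacteria. Mutant libraries were at 1102 and 1156 FPKM with BW25113 and at 1127 and 1163 FPKM with hns bacteria, so the genotypes did not overlap, as for 2.15% of all genes in this direction. The call was lost, with adjusted p up to 0.123, without either wild-type library on BW25113 food, replicate 2 of wild type on hns food, replicate 1 of the mutant on BW25113 food or either mutant library on hns food. The hsf-1 transcript itself ranged from 65.5 to 74.7 FPKM.

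**Figure D4:**
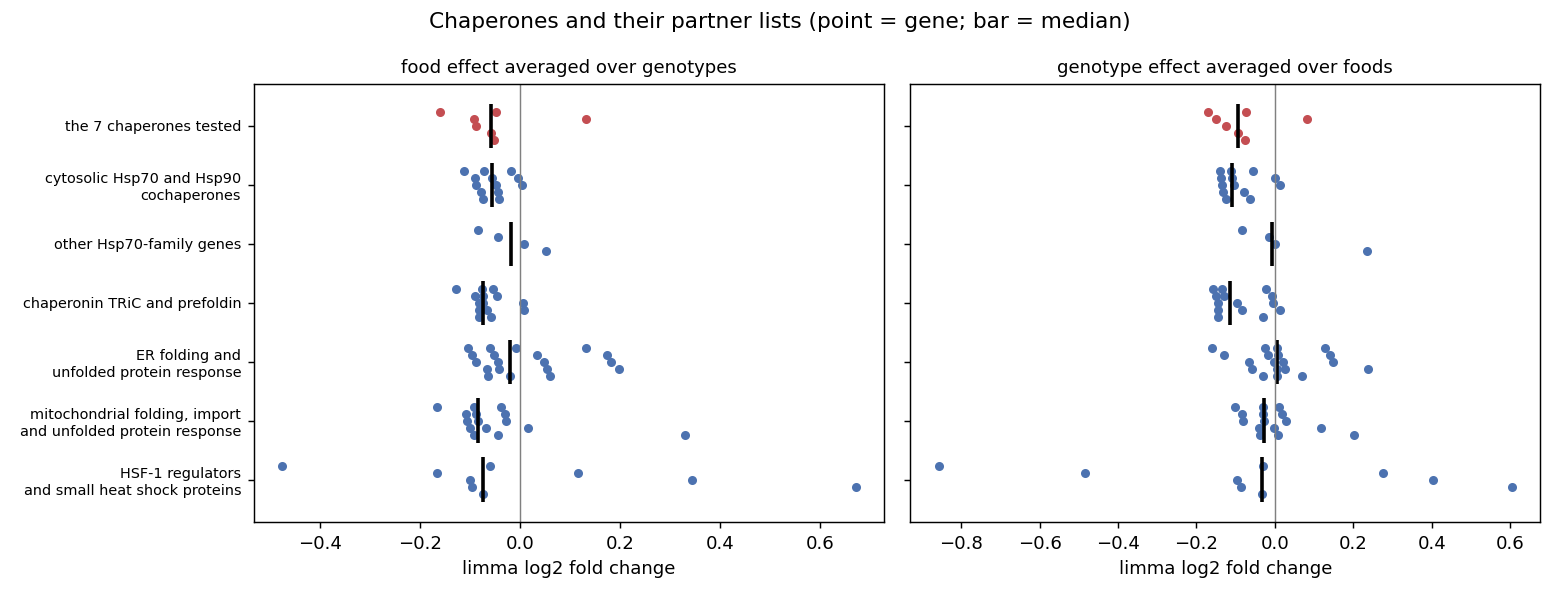
The limma log2 fold change of each gene (point) and the list's median (bar) for the 7 tested chaperones and 6 lists of partner genes, for food averaged over genotypes (left) and genotype averaged over foods (right). Of the genes plotted, sip-1 (-0.48, right, bottom row) is the only one past the threshold, and 6 of 7 chaperones lie below 0 in each panel; for food this was 3 of 7 after quantile normalization.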

How the data were processed

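Whole-worm RNA of 8 samples was sequenced from Lexogen SENSE mRNA libraries, per the labels. The authors deposited FPKM in 1 table, made with TopHat2 2.0.11 and Cufflinks 2.2.1 on the ce10 build, according to the submitters' processing notes; the sources used here do not give the annotation or any scaling between libraries. At the best-matching depth 51.5% to 54.5% of low values were whole fragments to within 0.15 (30% by chance), so no count test was run. FPKM were taken as log2(FPKM + 1), which understates changes of low genes. The 14564 genes that reached 1 FPKM in 2 or more libraries were fitted in limma 3.58.1 (R 4.3.3) with 1 mean per group and a mean-variance trend (4 residual and 2.32 prior degrees of freedom). P-values are two-sided, Benjamini-Hochberg adjusted over all genes tested, with a threshold of 0.05. The procedure was run on simulated data with independent noise and planted changes larger than any estimate for the chaperones. That run therefore does not bear on changes as small as theirs. The 7 comparisons share libraries. Percent changes are on the log2(FPKM + 1) scale. Names, transcripts and overlaps came from WBcel235, another build, so no coordinates are given; 2 of the listed genes (bag-2, hsp-16.1) had no row. The rule for named genes took the 8 genes, daf-16, list genes past the threshold and the 2 genes most correlated with each abundant chaperone. Other list genes were named for their roles after their values were seen, and dnj-27 and dve-1 for their values. Members and lists were chosen with earlier results of these data known.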

Additional observations from a re-analysis of the deposited data

How the results depend on the processing

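No chaperone passed in any of the 7 comparisons under any alternative run (pseudocounts of 0.1 and 5, no filter, rescaling each library to the same FPKM sum, quantile normalization, robust estimation, the replicate block, only the libraries compared, and leaving out each library). Of 658 recomputed log2 fold changes of the comparisons other than the interaction, whose single-gene directions were not counted, 620 kept their direction and 38 turned; hsp-6 kept its direction in all 94. The lowest adjusted p was 0.0804, for hsp-6 and food averaged over genotypes with the replicate block. The replicate numbers were not shown to pair the samples: the deviations of same-numbered samples correlated at 0.02 to 0.16, over 0.1 in 2 of 6 pairs of groups. The block moved the genes past the threshold from 127 to 488 for food in wild type, from 256 to 796 averaged over genotypes and from 121 to 253 for genotype averaged over foods.

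The cause of each change of direction was not tested. With libraries rescaled to the same sum, food in the mutant gave 0.056 for hsp-1, 0.016 for hsp-110, 0.012 for daf-21, 0.044 for hsp-4 and 0.086 for hsp-60, hsp-60 averaged over genotypes gave 0.0023, and hsp-3 gave -0.0045 for genotype on hns food and -0.0021 averaged over foods. With quantile normalization hsp-4 gave 0.0079 for food in wild type, food in the mutant gave 0.048 for hsp-1, 0.0025 for hsp-4 and 0.055 for hsp-60, and averaged over genotypes hsp-1 gave 0.012, hsp-4 0.0052 and hsp-60 0.023. Leaving out 1 library, food in the mutant ran from -0.21 to 0.12 for hsp-1, -0.22 to 0.056 for hsp-110, -0.23 to 0.055 for daf-21, -0.11 to 0.27 for hsp-3, -0.17 to 0.061 for hsp-4 and -0.13 to 0.098 for hsp-60. Food averaged over genotypes ran from -0.14 to 0.031 for hsp-1, -0.12 to 0.00057 for hsp-4 and -0.10 to 0.0083 for hsp-60. Genotype on BW25113 food ran from -0.27 to 0.067 for hsp-1, -0.058 to 0.33 for hsp-3, -0.20 to 0.038 for hsp-4 and -0.22 to 0.0037 for hsp-60. Genotype on hns food ran from -0.17 to 0.0037 for hsp-1, -0.035 to 0.095 for hsp-3, -0.16 to 0.0064 for hsp-4 and -0.12 to 0.036 for hsp-60, and hsp-3 averaged over foods from -0.014 to 0.18.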
